A study of Mus musculus with 18 samples.

Results

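The choroid plexus is a folded sheet of epithelium that hangs into the ventricles of the brain and makes the cerebrospinal fluid. Its epithelial cells secrete carrier proteins and growth factors, take up vitamins and hormones from the blood through receptors, and move water and ions through channels and transporters. In the forebrain part of it lies in the lateral ventricle, which borders the striatum. The genes described here are 10 genes known for their high expression in that epithelium: transthyretin (Ttr), Enpp2, Igf2, Folr1, Prlr, Kl, Aqp1, Kcnj13, Clic6 and Otx2. They were found by their Ensembl identifiers among the 55421 genes of the count table, all 10 were present, and all 10 were among the 20914 genes tested. The list was chosen by marker identity with earlier results of these libraries known, so the levels and fold changes of its members are given as a description, with no test of the list.

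Striatal RNA was sequenced from 18 mice of 12 to 14 months, labelled as C57BL/6 and given as C57BL/6J in the supplementary methods of the study, with 1 library per mouse. The groups were 5 WT mice, 5 zQ175 mice, which carry 1 knocked-in Htt allele with a chimeric human and mouse exon and an expanded CAG repeat and model Huntington's disease, 3 CK2a'(+/-) mice, which lack 1 allele of Csnk2a2, the gene of the CK2 catalytic subunit CK2a', in all cells, and 5 zQ175:CK2a'(+/-) mice, which carry both changes. No agent was given, and the sex of each mouse was not used here because the labels do not give it. The methods of the study give a sex ratio for each group. The WT and zQ175:CK2a'(+/-) groups had more females than males, and the zQ175 and CK2a'(+/-) groups more males than females. Sex was thus not balanced over the genotypes. The animals were perfused with heparin in buffered saline before the striatum was dissected and frozen. Levels are given as CPM, read counts brought to the same library size with the TMM factors of edgeR, and in the order of the replicate numbers of a group.

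Total counts ranged from 13612381 to 22702547 per library, and a count of 0 still allows a level of up to 0.131 to 0.215 CPM, depending on the library (3 counts, counting error only). Csnk2a2 followed the labels, at 29.4 to 35.0 CPM in WT, 32.0 to 37.5 CPM in zQ175, 14.7 to 18.02 CPM in CK2a'(+/-) and 15.8 to 19.9 CPM in zQ175:CK2a'(+/-) mice. Markers of the labelled tissue were present in every library: the summed level of 7 genes of striatal projection neurons (Drd1, Drd2, Adora2a, Ppp1r1b, Pde10a, Penk and Tac1) was 1123 to 5094 CPM. It was lowest in zQ175 replicate 1, where the sum of 6 thalamic neuron markers, 1309 CPM, was higher. In bulk tissue, fewer cells of a type and less RNA per cell cannot be told apart.

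The 10 genes were each higher in the same 4 of the 18 libraries than in the other 14. The 4 libraries were WT replicates 1 and 3, CK2a'(+/-) replicate 1 and zQ175:CK2a'(+/-) replicate 2, and Ttr was at 908 to 2904 CPM in them and at most 10.5 CPM in the rest. No zQ175 library was among the 4. They stood apart within their own groups, so each comparison below is given with and without them. Their total counts, 20464630, 14176224, 19279178 and 13612381, lay on both sides of the median of 18005044 over all libraries.

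**Figure D1:**
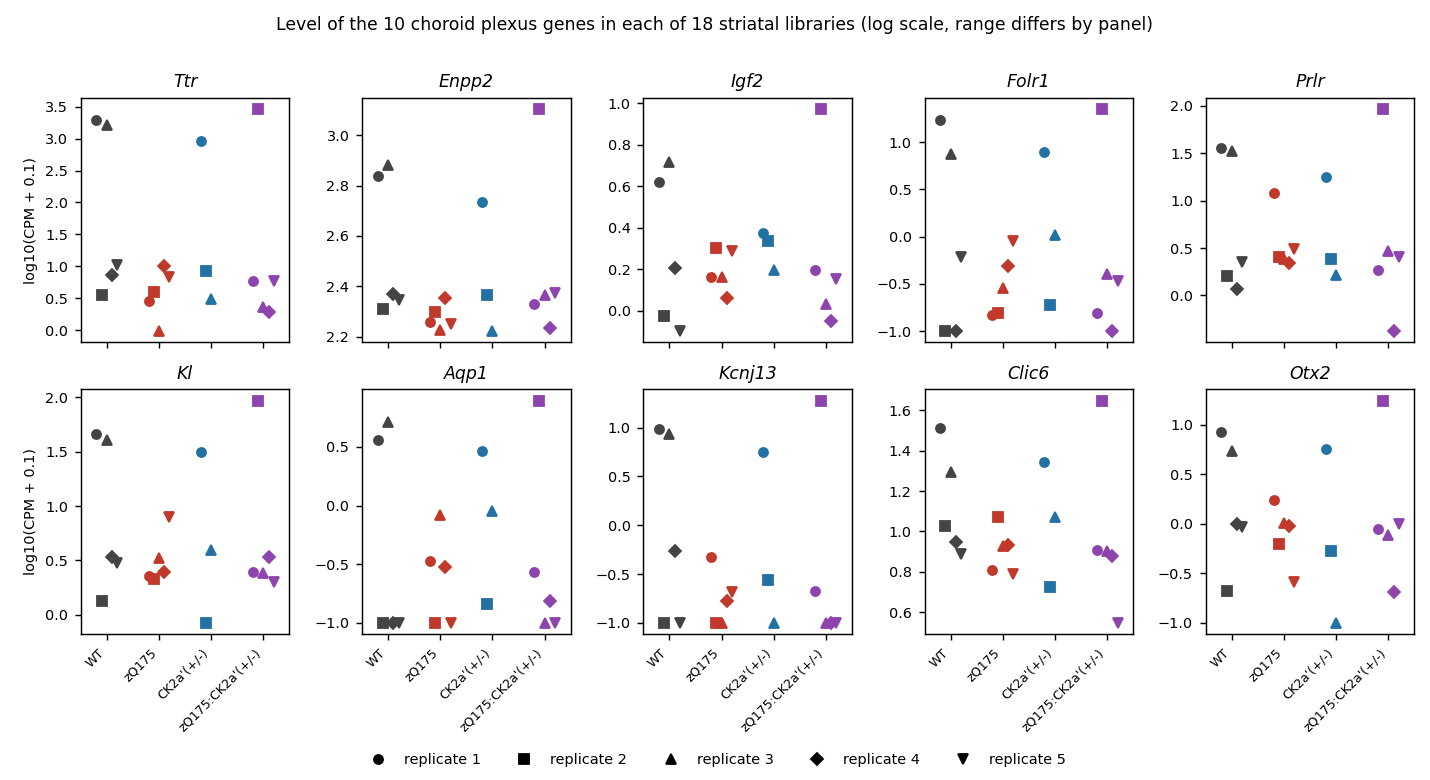
Level of each of the 10 choroid plexus genes in every library, as log10(CPM + 0.1), with colours for the genotypes and symbols for the replicates; the range of the vertical axis differs by panel. In each panel WT replicates 1 and 3, CK2a'(+/-) replicate 1 and zQ175:CK2a'(+/-) replicate 2 lie above the other 14 libraries. A zQ175 library is the highest of those 14 for Prlr, Kl, Clic6 and Otx2.

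Among the secreted proteins, Ttr, the carrier of thyroxine and, through retinol-binding protein, of retinol in the cerebrospinal fluid, is the classical marker of this epithelium (ENSMUSG00000061808, GRCm38 chromosome 18, 20665280 to 20674321, plus strand). In WT mice Ttr was at 1969, 3.41, 1647, 7.11 and 10.5 CPM in replicates 1 to 5. The zQ175 mice had 2.77, 3.88, 0.861, 9.96 and 6.78 CPM. The values were 908, 8.36 and 2.94 CPM in CK2a'(+/-) mice and 5.80, 2904, 2.20, 1.81 and 5.89 CPM in zQ175:CK2a'(+/-) mice. The distribution was therefore split, with a gap of 86.4-fold between the lowest of the 4 high libraries and the next one, WT replicate 5. Of the 123519 Ttr counts in the study, 122148 (98.9%) came from the 4 high libraries, where Ttr made up 0.0933% to 0.297% of all counts.

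The high libraries dominated the group means of Ttr. The mean was 727 ± 993 CPM (SD, n = 5) in WT, 584 ± 1297 CPM (SD, n = 5) in zQ175:CK2a'(+/-), 307 ± 521 CPM (SD, n = 3) in CK2a'(+/-) and 4.85 ± 3.57 CPM (SD, n = 5) in zQ175 mice. Each SD was larger than the mean except in zQ175 mice, and no neighbours in this order differed by more than the SD of the higher one. The medians had another order, at 10.5 CPM in WT, 8.36 CPM in CK2a'(+/-), 5.80 CPM in zQ175:CK2a'(+/-) and 3.88 CPM in zQ175 mice. The zQ175 values overlapped with those of every other group.

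Enpp2 (autotaxin, chromosome 15, 54838901 to 54952892, minus strand) is the secreted enzyme that makes lysophosphatidic acid and is also made by oligodendrocytes. Its level was 691, 203, 761, 234 and 222 CPM in WT mice and 182, 198, 169, 225 and 177 CPM in zQ175 mice. The other groups had 543, 233 and 166 CPM in CK2a'(+/-) mice and 214, 1270, 232, 172 and 236 CPM in zQ175:CK2a'(+/-) mice. Unlike Ttr, Enpp2 had a level of 166 to 236 CPM in the 14 other libraries, and the 4 high libraries held 50.2% of its counts. They lay 2.31 to 5.39 times above the highest of the others.

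Igf2, an imprinted growth factor (chromosome 7, 142650766 to 142666816, minus strand), was at a low level throughout. It was counted at 4.09, 0.838, 5.11, 1.51 and 0.695 CPM in WT mice and at 1.36, 1.91, 1.35, 1.06 and 1.83 CPM in zQ175 mice. The CK2a'(+/-) mice had 2.27, 2.06 and 1.47 CPM and the zQ175:CK2a'(+/-) mice 1.46, 9.26, 0.980, 0.796 and 1.32 CPM. Igf2 separated the libraries least of the 10 genes: CK2a'(+/-) replicate 1 (45 counts) was 1.11 times the level of replicate 2 (47 counts), the highest of the other 14.

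Of the receptors, Folr1, the folate receptor that carries folate into the cerebrospinal fluid (chromosome 7, 101858331 to 101870788, minus strand), had few counts outside the 4 libraries. WT mice had 16.9, 0, 7.35, 0 and 0.510 CPM, and zQ175 mice had 0.0469, 0.0579, 0.185, 0.396 and 0.807 CPM. Levels were 7.68, 0.0875 and 0.934 CPM in CK2a'(+/-) and 0.0563, 22.3, 0.306, 0 and 0.240 CPM in zQ175:CK2a'(+/-) mice. Of its 972 counts, 909 (93.5%) came from the 4 high libraries, and 3 of the other 14 had no count.

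Prlr, the prolactin receptor (chromosome 15, 10177238 to 10349180, plus strand), was at 35.5, 1.51, 33.0, 1.07 and 2.13 CPM in WT mice. In zQ175 mice it was at 11.8, 2.43, 2.34, 2.11 and 2.96 CPM. The CK2a'(+/-) mice had 17.6, 2.32 and 1.54 CPM and the zQ175:CK2a'(+/-) mice 1.75, 92.2, 2.82, 0.319 and 2.46 CPM. The highest of the 14 other libraries, zQ175 replicate 1, thus came within 1.49-fold of the lowest of the 4, with 252 counts. In that library Ttr was at 2.77 CPM, and the summed levels of 6 thalamic and 6 hippocampal neuron markers, 1309 and 197 CPM, were the highest of the 14. Its striatal sum of 1123 CPM was the lowest of all 18, and the part of these tissues in its Prlr level was not tested.

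Kl (klotho, chromosome 5, 150952607 to 150993817, plus strand), the co-receptor for the hormone FGF23, was at 46.2, 1.23, 40.9, 3.29 and 2.92 CPM in WT mice and 2.16, 2.03, 3.26, 2.37 and 7.85 CPM in zQ175 mice. It reached 31.7, 0.744 and 3.87 CPM in CK2a'(+/-) mice and 2.36, 93.5, 2.33, 3.29 and 1.92 CPM in zQ175:CK2a'(+/-) mice. The 4 high libraries lay at least 4.04 times above zQ175 replicate 5, the highest of the rest. In zQ175 replicate 5 the summed levels of cortical and hippocampal neuron markers were 320 and 183 CPM. The part of these tissues in its Kl level was not tested.

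The channels included the genes with the fewest counts outside the 4 libraries. Aqp1, the water channel of the epithelium's ventricular face (chromosome 6, 55336432 to 55348555, plus strand), was at 3.49, 0, 5.11, 0 and 0 CPM in WT mice and 0.234, 0, 0.738, 0.198 and 0 CPM in zQ175 mice. CK2a'(+/-) mice had 2.83, 0.0438 and 0.801 CPM, and zQ175:CK2a'(+/-) mice had 0.169, 7.75, 0, 0.0531 and 0 CPM. Aqp1 had no count in 7 of the 14 other libraries.

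Kcnj13, the inward rectifier potassium channel Kir7.1 (chromosome 1, 87386363 to 87394729, minus strand), was at 9.67, 0, 8.51, 0.444 and 0 CPM in WT mice and 0.375, 0, 0, 0.0660 and 0.108 CPM in zQ175 mice. It was at 5.51, 0.175 and 0 CPM in CK2a'(+/-) mice and 0.113, 18.8, 0, 0 and 0 CPM in zQ175:CK2a'(+/-) mice. It had no count in 8 of the 14 other libraries, and 690 of its 717 counts (96.2%) lay in the 4 high libraries. The gene lies over Gigyf2 on the opposite strand, which had 36326 counts, and the strand setting of the counting was not given in the sources used here.

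Clic6, of the chloride intracellular channel family (chromosome 16, 92485736 to 92541243, plus strand), was present in every library. Its level was 32.3, 10.5, 19.7, 8.75 and 7.60 CPM in WT mice and 6.33, 11.8, 8.36, 8.51 and 6.02 CPM in zQ175 mice. The remaining values were 21.9, 5.21 and 11.7 CPM in CK2a'(+/-) mice and 7.99, 44.4, 7.90, 7.48 and 3.43 CPM in zQ175:CK2a'(+/-) mice. Like Enpp2 (50.2%) and Igf2 (48.9%), Clic6 had 49.5% of its counts in the 4 high libraries, which lay 1.67 to 3.78 times above the highest of the others.

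Otx2, the homeodomain transcription factor needed for the formation of the choroid plexus (chromosome 14, 48657677 to 48673819, minus strand), was at 8.37, 0.112, 5.31, 0.888 and 0.834 CPM in WT mice. In zQ175 mice it was at 1.64, 0.521, 0.923, 0.857 and 0.161 CPM. It was at 5.56, 0.438 and 0 CPM in CK2a'(+/-) mice and 0.788, 17.5, 0.674, 0.106 and 0.902 CPM in zQ175:CK2a'(+/-) mice. The lowest of the 4 high libraries was 3.24 times the highest of the others. Its antisense neighbour Otx2os1 had 115 counts in all against 767 for Otx2.

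As 1 of the 10 genes is a transcription factor of this epithelium, their promoters were read for the core that OTX2 binds, TAATCC, on both strands. The sequences are those of the reference genome, so they cannot say why some libraries were high. RefSeq promoters of 300 bases (250 before to 50 after a start, GRCm38.p6) matched 6 of the 10 genes, with 14 promoters in all. These were Aqp1, Prlr, Kl, Kcnj13, Otx2 and Igf2. The core was found in 2 of the 14, against 2320 of the 32851 promoters in the table (7.06%). The pair with a match is shown, 5′ to 3′ on the gene's own strand, with the match, here in its reverse form GGATTA, in capitals. The first is at a start inside the Otx2 span, chr14:48665060-48665359 on the minus strand, with the match beginning 211 bases before the start, and the second is at an Igf2 start, chr7:142658755-142659054 on the minus strand, with the match 10 bases after it.
Otx2: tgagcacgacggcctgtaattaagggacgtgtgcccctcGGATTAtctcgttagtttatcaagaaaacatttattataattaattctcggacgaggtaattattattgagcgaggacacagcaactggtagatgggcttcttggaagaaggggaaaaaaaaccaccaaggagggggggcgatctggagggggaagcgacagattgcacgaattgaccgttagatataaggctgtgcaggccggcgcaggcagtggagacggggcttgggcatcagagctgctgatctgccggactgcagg
Igf2: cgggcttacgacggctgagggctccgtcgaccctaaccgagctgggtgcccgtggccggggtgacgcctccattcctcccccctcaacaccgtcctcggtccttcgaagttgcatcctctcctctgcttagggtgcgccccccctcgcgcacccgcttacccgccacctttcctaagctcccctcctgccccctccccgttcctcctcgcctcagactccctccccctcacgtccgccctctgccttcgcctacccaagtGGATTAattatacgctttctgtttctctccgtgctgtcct
A match of these letters is a description and not a binding site, and the other 12 promoters only lack them within these windows.

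The proportions of the genes to each other were compared over the 4 high libraries, where each gene spanned 1.32-fold to 2.01-fold relative to Ttr. Per 1000 Ttr counts, Kcnj13 had 4.91 (95% counting interval 4.24 to 5.65) in WT replicate 1, 5.17 (4.30 to 6.16) in WT replicate 3, 6.06 (4.97 to 7.32) in CK2a'(+/-) replicate 1 and 6.48 (5.71 to 7.31) in zQ175:CK2a'(+/-) replicate 2. Its 4 values spanned 1.32-fold, while Ttr itself spanned 908 to 2904 CPM. Kl spanned 23.5 to 34.9 counts per 1000 Ttr counts, Igf2 2.08 to 3.19, Enpp2 351 to 598, Aqp1 1.77 to 3.11, Prlr 18.04 to 31.8, Otx2 3.23 to 6.12 and Folr1 4.47 to 8.58. The widest range was that of Clic6, 12.0 to 24.1, or 2.01-fold. For each of the 9 genes the lowest and the highest library lay outside each other's counting interval, narrowly so for Kcnj13. Examples are Enpp2, at 351 (344 to 358) in WT replicate 1 against 598 (584 to 613) in CK2a'(+/-) replicate 1, and Clic6, at 12.0 (10.6 to 13.4) in WT replicate 3 against 24.1 (21.8 to 26.5) in CK2a'(+/-) replicate 1. Prlr was highest in zQ175:CK2a'(+/-) replicate 2, at 31.8 (30.0 to 33.6) against 20.0 (18.3 to 21.9) in WT replicate 3, the next highest, and Folr1 was lowest in WT replicate 3, at 4.47 (3.66 to 5.39) against 7.66 (6.83 to 8.57) in the next. These intervals cover counting error only. With the median of the 14 other libraries subtracted from each level, the genes with a level of their own there had, per 1000 CPM of Ttr, 245 to 369 CPM of Enpp2, 7.12 to 15.3 CPM of Clic6 and 1.01 to 2.72 CPM of Igf2, ranges of 1.51-fold, 2.15-fold and 2.70-fold.

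**Figure D2:**
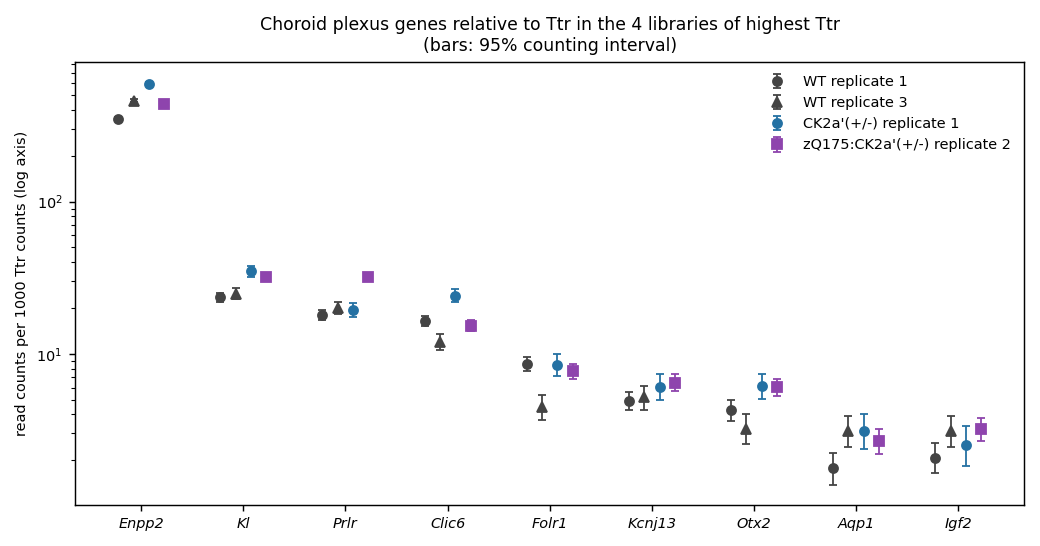
Read counts of 9 genes per 1000 Ttr counts in the 4 libraries of highest Ttr, on a log axis, with bars for the 95% counting interval. The range over the 4 libraries goes from 1.32-fold for Kcnj13 to 2.01-fold for Clic6, and for each of the 9 genes the intervals of its lowest and highest library do not overlap.

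Per kilobase of exon, which allows genes to be compared, Ttr was the most abundant of the 10 in the 4 high libraries, at 1660.0, 1388, 766 and 2449 CPM per kilobase in WT replicates 1 and 3, CK2a'(+/-) replicate 1 and zQ175:CK2a'(+/-) replicate 2. Enpp2 followed at 120, 132, 94.0 and 220 CPM per kilobase. Clic6 had 8.26, 5.03, 5.59 and 11.4 and Kcnj13 7.61, 6.70, 4.33 and 14.8 CPM per kilobase, and Igf2 was lowest at 0.714, 0.892, 0.397 and 1.62 CPM per kilobase. In the other 14 libraries Enpp2, at 28.8 to 40.8 CPM per kilobase, stood above Ttr in each. Ttr accordingly made up 58.7% to 69.9% of the summed CPM of the 10 genes in the 4 libraries and 0.461% to 4.25% in the other 14. The sum itself was 2817, 2532, 1547 and 4480 CPM in the 4 libraries and 186 to 257 CPM in the others.

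Other genes of the epithelium moved with the 10. Of 24 further choroid plexus genes, 23 were tested (Slco1a5 was not), and in 21 of the 23 each of the 4 libraries lay above all other 14. The summed level of all 24 was 378, 342, 288 and 579 CPM in WT replicates 1 and 3, CK2a'(+/-) replicate 1 and zQ175:CK2a'(+/-) replicate 2, and 73.1 to 136 CPM in the rest. Ace, angiotensin-converting enzyme, was at 73.4, 56.5, 53.7 and 102 CPM against at most 34.5 CPM. F5, coagulation factor V, was at 36.6, 29.8, 29.9 and 55.7 CPM against at most 2.85 CPM, and the sulfatase gene Sulf1 at 38.4, 34.7, 26.4 and 52.0 CPM against at most 15.4 CPM. Car12, a carbonic anhydrase, separated narrowly, at 46.8 to 48.5 CPM against at most 46.3 CPM. Cab39l and Lmx1a were the tested genes of the list that overlapped, with Cab39l at 30.2 to 52.3 CPM against up to 30.7 CPM. Over all 20914 genes tested, 109 (0.521%) had the 4 libraries above all other 14, of which 10 were the genes described here, 21 came from this list, 2 from other marker lists and 76 from no list.

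Markers of the tissues next to the choroid plexus separated the libraries less. Ependymal cells line the ventricle, and 1 of their 11 tested markers (Dynlrb2) had the 4 libraries above the other 14. The summed level of 12 ependymal genes was 61.9, 39.8, 64.1 and 56.1 CPM in WT replicates 1 and 3, CK2a'(+/-) replicate 1 and zQ175:CK2a'(+/-) replicate 2, and 19.1 to 44.3 CPM in the rest. Foxj1, the regulator of motile cilia, was at 11.3, 5.24, 8.48 and 8.61 CPM against 2.51 to 5.77 CPM. None of 12 leptomeningeal fibroblast genes separated, with sums of 27.9 to 50.6 against 21.2 to 50.9 CPM, and 1 of 8 brain endothelium genes did (Slco1c1, a thyroxine transporter), with sums of 176 to 209 against 158 to 247 CPM.

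The other marker lists did not separate these libraries. No gene of the red blood cell (4 tested), oligodendrocyte (8), striatal (7), cortical (5), thalamic (6) and hippocampal (5) lists had the 4 libraries above the rest. The beta globin gene Hbb-bs, measured after perfusion, was at 0.0997 and 0 CPM in WT replicates 1 and 3 and at 19.3 and 17.8 CPM in CK2a'(+/-) replicate 1 and zQ175:CK2a'(+/-) replicate 2, against at most 9.49 CPM in the others. The striatal sum was 2316 to 3656 CPM in the 4 libraries, within the 1123 to 5094 CPM of the others.

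**Figure D3:**
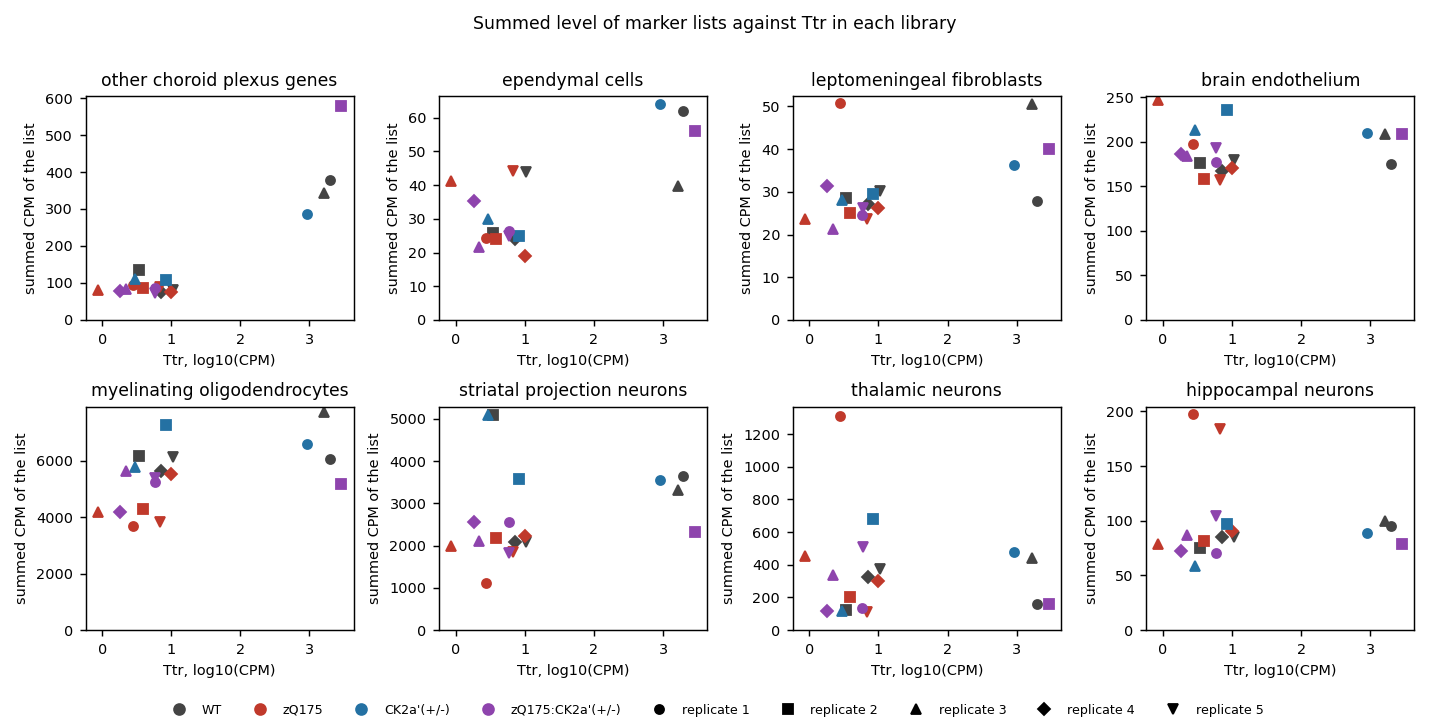
Summed CPM of 8 marker lists (vertical axis, starting at 0) against Ttr as log10(CPM) (horizontal axis) in each library. The 4 libraries of high Ttr are above all others for the other choroid plexus genes (288 to 579 CPM against 73.1 to 136 CPM), and overlap with the rest for ependymal cells and the 6 further lists.

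The genes whose level followed Ttr most closely were sought over all genes tested, by Pearson's r of log2 CPM over the 18 libraries, as a description: the 4 high libraries form a cluster of their own and carry most of each r. The 10 highest that are not on the list were Slc16a8 (r = 0.973, Spearman's rho = 0.816), Cldn2 (0.966, 0.689), 2900040C04Rik (0.966, 0.720), Mfrp (0.964, 0.821), Wfdc2 (0.963, 0.728), Slc28a3 (0.955, 0.726), Slc4a5 (0.953, 0.604), Kcne2 (0.947, 0.725), Prr32 (0.942, 0.689) and Gm49153 (0.939, 0.720). Slc16a8, a lactate transporter, was at 1.15 to 3.37 CPM in the 4 libraries and at most 0.0660 CPM in the others, and the tight junction gene Cldn2 at 4.39 to 11.5 against at most 0.185 CPM. 2900040C04Rik, Wfdc2, Slc28a3 and Gm49153 had no count in any of the other 14 libraries. Among the members, Enpp2 ranked 2nd (r = 0.967, rho = 0.808), Kcnj13 7th (r = 0.955, rho = 0.726) and Aqp1 lowest, at rank 53 (r = 0.824, rho = 0.375). Over the 14 other libraries alone, r with Ttr was 0.65 for Enpp2 (rho = 0.596) and 0.34 for Kcnj13 (rho = 0.385), and it reached -0.47 for Aqp1 (rho = -0.373). In those 14, Kcnj13 had no count in 8 and at most 10, and Aqp1 no count in 7 and at most 12. Their correlations there rest on very few counts.

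The first comparison asks how the striatum of zQ175 mice differs from that of WT mice. All 10 genes had negative estimates, with a median log2 fold change of -2.15 against 0.004 over all genes tested, and none of the 10 passed the false discovery rate (FDR) of 0.1 in edgeR's quasi-likelihood test. Among all genes, 1.1% passed in this comparison. At an unadjusted p under 0.05 edgeR had 4 of the 10 (Ttr, Kcnj13, Folr1 and Enpp2), against 13.9% of all genes. DESeq2 with default settings called 1, Ttr, against 5.15% of the genes to which it gave an adjusted p. The estimate for Ttr was -7.24 (SE 2.32, edgeR adjusted p = 0.161), and with DESeq2 it was -7.23 (SE 1.77, adjusted p = 0.00736). For Kcnj13 edgeR gave -4.86 (SE 1.93), for Folr1 -4.03 (SE 1.68), for Aqp1 -2.84 (SE 1.603) and for Kl -2.40 (SE 1.16). Otx2, Prlr, Enpp2, Clic6 and Igf2 had -1.89, -1.72, -1.15, -0.94 and -0.69, and the adjusted p of the 10 genes ran from 0.161 to 0.668 in edgeR.

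The 4 libraries were picked for their Ttr level, so that smaller Ttr differences without them follow from the choice and are given as a description. Without them, which leaves 3 WT and 5 zQ175 mice in this comparison, Kcnj13 no longer had the counts to be tested and none of the other 9 passed in edgeR, against 0.00469% of all genes. Ttr then had an estimate of -0.54 (SE 0.572, edgeR adjusted p = 0.844). Enpp2 had -0.21 (SE 0.126) and Clic6 -0.13 (SE 0.297). The other estimates had the opposite sign, with Prlr at 1.47 (SE 0.634, edgeR adjusted p = 0.612), Folr1 at 0.76 (SE 1.31), Igf2 at 0.56 (SE 0.403), Kl at 0.51 (SE 0.516) and Otx2 at 0.41 (SE 0.869), and 2 of the 9, Prlr and Aqp1, had an unadjusted p under 0.05 in edgeR, against 7.78% of all genes. The estimate for Prlr includes zQ175 replicate 1, at 11.8 CPM against 2.11 to 2.96 CPM in the other zQ175 and 1.07 to 2.13 CPM in the remaining WT libraries, and a fit without that library as well was not run. Myelinating oligodendrocytes, which also make Enpp2, are marked here by 8 genes. All 8 had negative estimates with all libraries (median -0.50) and 5 were called lower. Without the 4 libraries the median was -0.44 and none was called (lowest edgeR adjusted p = 0.496). An unadjusted edgeR p under 0.05 was found for 6 with all libraries and for 6 without the 4, against 13.9% and 7.78% of all genes. The part of oligodendrocytes in the Enpp2 level was not tested. No fold is given for Aqp1, which had no count in the 3 remaining WT libraries and 0 to 12 counts in the zQ175 libraries. The number of genes called over the whole table went from 230 to 1 with these libraries left out together. It went to 10 without WT replicate 1, to 0 without WT replicate 3 and also to 0 without zQ175 replicate 5. The last is not among the 4, and its summed cortical neuron markers, 320 CPM, were the highest of all libraries. The next, zQ175 replicate 3, had 93.05 CPM. The part of cortical tissue in these calls was not tested.

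The comparison of zQ175:CK2a'(+/-) with zQ175 mice asks what the loss of 1 Csnk2a2 allele changed in the disease model. It shares the zQ175 libraries with the first comparison. All 10 estimates were positive, with a median log2 fold change of 2.38 against -0.005 over all genes, and none of the 10 passed in edgeR, where 0.0143% of all genes did. At an unadjusted p under 0.05 edgeR had 5 (Ttr, Kcnj13, Enpp2, Folr1 and Kl), against 6.27% of all genes. DESeq2 called Ttr alone (6.91, SE 1.77, adjusted p = 0.0843), against 0.146% of its genes. In edgeR, Ttr had 6.93 (SE 2.29, adjusted p = 0.597), Kcnj13 4.87 (SE 1.93), Folr1 3.89 (SE 1.69), Aqp1 2.72 (SE 1.61), Kl 2.53 (SE 1.17), Otx2 2.24 (SE 1.17) and Prlr 2.16 (SE 1.18). Enpp2, Igf2 and Clic6 had 1.16, 0.86 and 0.79. The edgeR adjusted p of the 10 genes ran from 0.597 to 0.879.

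These estimates rested on zQ175:CK2a'(+/-) replicate 2. Without that library alone Ttr had -0.29 (edgeR adjusted p = 0.994), and 9 of the 10 genes took a negative sign, Enpp2 excepted (0.17). Without the 4 libraries Ttr had -0.30 (SE 0.547, edgeR adjusted p = 0.996), Aqp1 -1.91 (SE 1.40, on at most 12 and 3 counts in a library of each group), Prlr -1.25 (SE 0.569), Folr1 -0.98 (SE 1.23), Kl -0.51 (SE 0.475), Otx2 -0.42 (SE 0.803), Igf2 -0.40 (SE 0.368), Clic6 -0.29 (SE 0.278) and Enpp2 0.17 (SE 0.116). None of the 9 genes tested passed in edgeR, against 0.00938% of all genes, and 1, Prlr, had an unadjusted p under 0.05, against 4.82%. The Prlr estimate again includes zQ175 replicate 1, at 11.8 CPM against 2.11 to 2.96 CPM in the other zQ175 libraries. Beside Enpp2, all 8 oligodendrocyte genes had positive estimates, with a median of 0.28 both with all libraries and without the 4, and none was called. An unadjusted edgeR p under 0.05 was found for 5 with all libraries and for 4 without the 4, against 6.27% and 4.82% of all genes. The part of oligodendrocytes in the Enpp2 level was not tested.

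**Figure D4:**
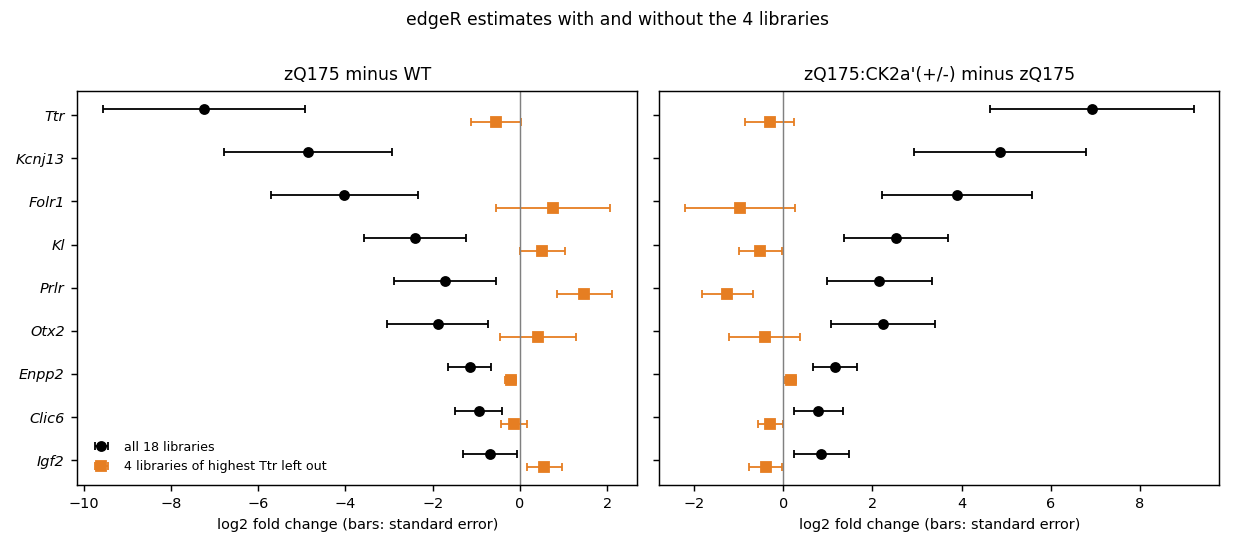
Log2 fold changes of edgeR with their standard errors for zQ175 minus WT (left) and zQ175:CK2a'(+/-) minus zQ175 (right), with all 18 libraries (black circles) and with the 4 libraries of highest Ttr left out (orange squares); Aqp1 is not drawn, and Kcnj13 has no orange point because it was not tested there. With all libraries the estimates run from -7.24 for Ttr to -0.69 for Igf2 on the left and up to 6.93 for Ttr on the right, and without the 4 libraries those for Ttr are -0.54 and -0.30.

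In the remaining comparisons both groups held libraries of high Ttr. Between CK2a'(+/-) and WT mice, 1 of 3 against 2 of 5, all 10 estimates were negative, from -1.25 for Ttr (SE 2.07) to -0.29 for Clic6, with a median of -0.62 against -0.006 over all genes. None of the 10 passed in edgeR, where 0.0143% of all genes did, none had an unadjusted p under 0.05, against 4.48% of all genes, and DESeq2 called none, against 0.0293% of its genes. Without CK2a'(+/-) replicate 1 the estimate for Ttr was -6.96, and without the 4 libraries it was -0.30 (SE 0.724, edgeR adjusted p = 1). The signs of 6 of the 10 turned on leaving out a single library. Without WT replicate 1, Folr1 had 0.61, Otx2 0.21, Clic6 0.16 and Kl 0.03. Without WT replicate 3, Aqp1 had 0.49 and Igf2 0.13, and without CK2a'(+/-) replicate 2, Aqp1 had 0.12 and Clic6 0.10. Without the 4 libraries 4 of the 9 genes tested were positive and 5 negative, with a median of -0.09. Only Aqp1 had an unadjusted edgeR p under 0.05 there (0.0183), with no count in the remaining WT libraries and 1 and 12 in CK2a'(+/-) mice. The share of all genes under 0.05 in that fit was not counted.

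Between zQ175:CK2a'(+/-) and WT mice, 1 of 5 against 2 of 5, 6 estimates were positive and 4 negative, from -0.32 for Ttr (SE 1.71) to 0.44 for Prlr (SE 1.11), with a median of 0.01. None of the 10 passed in edgeR, where 0.0143% of all genes did, none had an unadjusted p under 0.05, against 9.13% of all genes, and DESeq2 called none, against 0.722% of its genes. Leaving out zQ175:CK2a'(+/-) replicate 2 made all 10 negative, with Ttr at -7.54, Kcnj13 at -6.71, Prlr at -3.00, Kl at -2.92 and Otx2 at -2.32. Kcnj13 had 2, 0, 0 and 0 counts in the remaining zQ175:CK2a'(+/-) libraries, so the size of its estimate is not a measured fold. Leaving out WT replicate 1 instead took Ttr to 0.44 and Folr1 to 1.21. Leaving out the 4 libraries took Ttr to -0.84 (SE 0.606, edgeR adjusted p = 1), with 3 of the 9 genes tested positive, 6 negative and a median of -0.01.

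The interaction asks whether the loss of a Csnk2a2 allele acted differently with and without the zQ175 allele, and it uses all groups. The 10 estimates were positive, with a median of 3.16 against -0.002 over all genes, and none of the 10 passed in edgeR, where 0.00478% of all genes did. At an unadjusted p under 0.05 edgeR had 3 (Ttr, Kcnj13 and Enpp2), against 5.39% of all genes, and DESeq2 called none, against 0.0747% of its genes. The estimate for Ttr was 8.17 (SE 3.27, edgeR adjusted p = 0.916). It was 13.9 without CK2a'(+/-) replicate 1, 0.95 without zQ175:CK2a'(+/-) replicate 2, and -0.001 (SE 0.785) without the 4 libraries. Without zQ175:CK2a'(+/-) replicate 2 alone, Aqp1 (-1.43), Kcnj13 (-0.88), Prlr (-0.25), Folr1 (-0.23) and Igf2 (-0.08) were negative. Without the 4 libraries 2 of the 9 genes tested were positive and 7 negative, with a median of -0.37. Only Aqp1 had an unadjusted edgeR p under 0.05 there (0.00966), with no count in the remaining WT libraries. The share of all genes under 0.05 in that fit was not counted.

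The 23 further choroid plexus genes tested had mostly the same signs as the 10. Between zQ175 and WT mice all 23 had negative estimates, with a median of -2.13, and between zQ175:CK2a'(+/-) and zQ175 mice 22 were positive, with a median of 2.20. None of the 23 passed in edgeR in either comparison, 12 and 9 had an unadjusted p under 0.05, against 13.9% and 6.27% of all genes, and the lowest edgeR adjusted p were 0.183 and 0.597. Without the 4 libraries 15 of them could be tested, with medians of 0.26 and -0.11, and none passed or had an unadjusted p under 0.05.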

How the data were processed

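Striatal RNA was made into stranded total RNA libraries. Reads passed FastQC and Trimmomatic, and HISAT2 2.1.0 placed them on GRCm38. After duplicated, unmapped and poorly mapped reads had been dropped, the authors counted reads on genes with Subread 1.6.2 and deposited raw counts. The strand setting of the counting is not given in the sources used here. Counts were normalized with TMM and tested with edgeR 4.0.16 (filterByExpr, quasi-likelihood test, all 18 libraries in a single fit, genotype only, Benjamini-Hochberg FDR under 0.1) in R 4.3.3. DESeq2 1.42.0 was an alternative, and both tools were tested on simulated data. Log2 CPM used a prior count of 2. Of 55421 identifiers, 55154 matched a symbol of GENCODE M21. A library stands for 1 mouse. Same-numbered replicates of different groups did not deviate together, so the block was kept as an alternative only. The 10 genes and the marker lists were chosen with earlier results of these data known. A gene planned for the striatal list is not reported here and was left out of its sum. Of the marker lists, the genes named were taken from the 5 of highest mean CPM, those called, and those counted in sets of 5 or fewer, and the 10 genes most like Ttr were added. The alternative without the 4 libraries of highest Ttr was added after the data were seen.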

Additional observations from a re-analysis of the deposited data

Results flagged for a closer look

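Within each group of 5, a level was looked at again by Dixon's criterion. It asks whether the gap to the nearest other library is a large share of the group's range. Its cut-off is set for about 1 in 20 groups of independent, normally distributed values. These genes were chosen with earlier results known and were high together, and their sum was checked as well. The number that met it is therefore a description and cannot be set against that rate. Of 33 groups of values checked, 14 met the criterion, 11 of them in zQ175:CK2a'(+/-) mice. In zQ175:CK2a'(+/-) replicate 2 these were all 10 genes and their sum: Ttr at 2904 CPM (at most 5.89 CPM in the other libraries of the group), Enpp2 at 1270.0 CPM, Prlr at 92.2 CPM, Kl at 93.5 CPM, Clic6 at 44.4 CPM, Folr1 at 22.3 CPM, Kcnj13 at 18.8 CPM, Otx2 at 17.5 CPM, Igf2 at 9.26 CPM, Aqp1 at 7.75 CPM and the sum of the 10 genes at 4480.0 CPM (at most 252 CPM in the others). In zQ175 mice, Prlr stood apart in replicate 1 at 11.8 CPM (2.11 to 2.96 CPM in the others), Kcnj13 in replicate 1 at 0.375 CPM, which is 8 counts, and Kl in replicate 5 at 7.85 CPM (2.03 to 3.26 CPM in the others). No WT level met it, since WT mice held 2 high libraries, and the 3 CK2a'(+/-) libraries were too few to check.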

How the results depend on the processing

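No gene of the 10 was called by edgeR in any of the 5 comparisons. With DESeq2 this became 1 for zQ175 against WT and 1 for zQ175:CK2a'(+/-) against zQ175. Of the genes with an adjusted p, DESeq2 called 5.15% and 0.146%. With no filter on low counts it became 4 and 1, against 451 and 51 of all 37580 genes. Ttr was called in all of these. Leaving out 1 library at a time, the count lay between 0 and 1 for zQ175 against WT, and between 0 and 0 in the other comparisons. Ttr passed without zQ175:CK2a'(+/-) replicate 2 (-7.24, edgeR adjusted p = 0.0814), where 196 of 20801 genes did. DESeq2's size factors, a fit of only the pair of groups compared, a filter of 10 counts in 10% of the libraries, a robust fit and an FDR of 0.05 left the counts at 0, as did leaving out the 4 libraries together. Ttr in zQ175:CK2a'(+/-) replicate 2 was 2972 CPM without TMM against 2904 CPM. With the replicate number as a replicate block the count of called genes among the 10 was 0 in each comparison, and Ttr had -4.94 for zQ175 against WT (edgeR adjusted p = 0.564) and 2.45 for zQ175:CK2a'(+/-) against zQ175 (edgeR adjusted p = 0.961). The pairing was not borne out: over 24 same-numbered pairs the correlation of deviations was -0.14 to 0.12, and 1 of 18 libraries correlated best with its own number. Over all genes, the 230 calls for zQ175 against WT became 847 with DESeq2, 451 with no filter, 98 with the block, 0 with only the groups compared, and 0 to 587 without single libraries. For zQ175:CK2a'(+/-) against zQ175, 3 became 39 with DESeq2, 51 with no filter, 2 with only the groups compared, 1 with the block and 1 to 6 without single libraries. For zQ175:CK2a'(+/-) against WT, 3 became 124, 85, 1 and 1 in the same order, 6 in a robust fit and 1 to 34 without single libraries. For CK2a'(+/-) against WT, 3 became 11, 19, 0 and 1, and 1 to 9 without single libraries. For the interaction, 1 became 15 with DESeq2 and 10 with no filter, and 0 to 2 without single libraries. The cause of these differences was not tested. Without the 4 libraries these 5 counts were 1, 2, 2, 2 and 0. For Aqp1, Kcnj13 and Folr1, depth limits what the 14 other libraries can show, since many of their counts are 0 to 3.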
